A study of Mus musculus with 12 samples.

Results

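The microRNAs described here were counted in extracellular vesicles, the membrane-bound particles that cells shed into body fluids, from the plasma of sham-operated mice. The 6 libraries are those whose column names carry the 8dSham code, out of 12 in the series, and the 1915 mouse microRNA names among the 1982 names of the table were the features. The mice were male C57BL/6J animals sampled 8 days after a sham operation, and the labels give no further allele, agent or age. The remaining 6 libraries of the series come from mice whose bile duct was tied and were not compared with sham here. One free-text label names the ligation for every sample, sham included, so the group was taken from the titles and the treatment label. Another label gives the tissue as liver. By the site label and the extraction protocol, though, the material is vesicles precipitated from plasma with ExoQuick, which collects material by solubility and not by a surface marker. The labels do not say that each library is a separate animal, so the spreads and p-values below describe these 6 libraries and may be partly technical.

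A microRNA is cut from a hairpin in a longer transcript, which leaves a short duplex of a 5p and a 3p strand, each from an arm of the hairpin. Usually 1 strand is kept by an Argonaute protein and the other is degraded. The kept strand finds messenger RNAs mainly through its seed, bases 2 to 8, so microRNAs with the same seed are grouped as a family. In blood, red cells, platelets, white cells, endothelium and liver are the known main sources of microRNA, and miR-486 and miR-451a are the best known red cell microRNAs.

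The mature sequences of some leading names and of other members of their seed groups are shown first, because the seed families and arms below are read from them. They were matched by name to RefSeq (GRCm38.p6), where 1623 of the 1915 names had an entry. These entries held 16.2% to 21.2% of the counts of a library, and 13 of the 20 most abundant names were among them. miR-486a-5p, miR-486b-5p and miR-122-5p had no entry, so their sequences are not shown. Each sequence is written 5′ to 3′ with the seed in capitals.
miR-99a-5p: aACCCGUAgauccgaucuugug
miR-99b-5p: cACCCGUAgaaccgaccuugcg
miR-100-5p: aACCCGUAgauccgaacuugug
miR-148a-3p: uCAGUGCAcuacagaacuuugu
miR-148b-3p: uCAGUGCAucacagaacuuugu
miR-152-3p: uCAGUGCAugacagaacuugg
miR-25-3p: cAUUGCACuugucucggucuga
miR-92a-3p: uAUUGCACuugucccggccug
miR-92b-3p: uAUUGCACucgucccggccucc
miR-451a: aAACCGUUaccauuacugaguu
let-7i-5p: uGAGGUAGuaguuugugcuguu
let-7b-5p: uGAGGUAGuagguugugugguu
let-7e-5p: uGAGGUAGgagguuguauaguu
miR-10a-5p: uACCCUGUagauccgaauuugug
miR-10b-5p: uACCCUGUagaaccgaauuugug
miR-140-3p: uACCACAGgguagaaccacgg
miR-126a-3p: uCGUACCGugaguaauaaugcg

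Total mouse microRNA counts were 2684636, 2388515, 1380297, 1407980, 1957974 and 659302 in sham libraries 1 to 6. Library 6 was thus the shallowest, and a count of 0 there allows up to 3 counts, or 4.55 CPM (counts scaled to a library size of 1000000), against 1.12 CPM in library 1. No molecular identifiers were described, so intervals and floors cover counting error only. At least 1 count was found for 938 ± 155 names per library (SD, n = 6; range 738 to 1151). After each library was thinned at random to 659302 counts, the number was 736.5 ± 46.9. Over the 6 libraries, 1558 names had a count in at least 1 library and 471 in all 6, while 344 were seen in exactly 1 library and 357 (18.6%) in none. A working repertoire of 241 names had at least 10 counts in every library, and these names held 99.8% of all sham counts. At least 100 counts in every library were reached by 93 names and at least 1000 by 39.

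The sham vesicle profile was dominated by 1 microRNA, miR-486-5p, which is best known from red cells. miR-486a-5p held 37.4%, 37.2%, 37.7%, 40.1%, 37.9% and 36.2% of counts in libraries 1 to 6, a mean of 37.8% ± 1.3 (SD, n = 6). miR-486b-5p had the same count as miR-486a-5p in every library, so the table lists that signal under both names. The hairpin genes lie over each other: in GENCODE M21 on GRCm38, Mir486 spans chr8:23142555-23142682 on the plus strand and Mir3107, the gene of miR-486b, spans chr8:23142573-23142662 on the minus strand, both within Ank1 and outside its exons. Ank1 encodes a protein of the red cell membrane skeleton. Counted once, miR-486-5p held 60.8% ± 3.43 of counts, from 56.7% to 67.0%, and it was the highest name in each of the 6 libraries.

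Below miR-486 the abundances fell off steeply, as the plot of share by rank shows. The 10 most abundant names held 86.3% ± 1.64 of counts, or 79.1% when names with identical counts entered once. It took 17.5 ± 3.27 names to reach 90% of counts and 97.2 ± 9.5 to reach 99% (SD, n = 6). The effective number of names, which is the number of equally abundant names with the same Shannon entropy, was 7.85 ± 0.856. With the 4 miR-486 names left out, the 10 most abundant held 50.5%, 53 names reached 90% and the effective number was 52.7. Library 4 was the most concentrated: its top 10 held 89.6% of counts, and 11 names reached 90%, against 18 to 20 in the others.

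**Figure D1:**
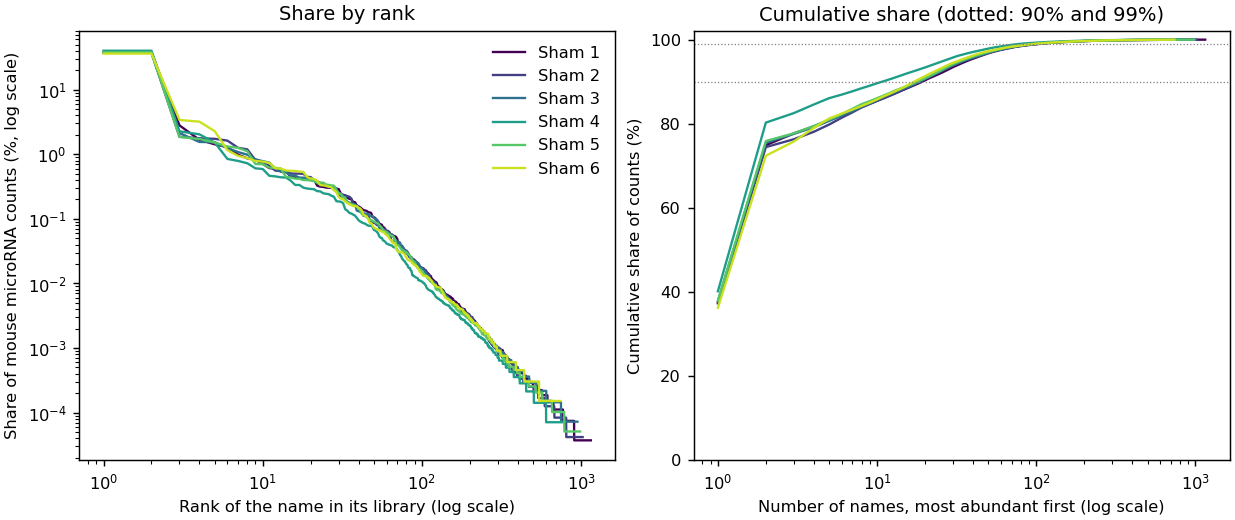
Share of mouse microRNA counts (%, log axis) by rank in each of the 6 sham libraries (left) and cumulative share (right), with 1 line per library and dotted lines at 90% and 99%. The first 2 ranks are the miR-486a-5p and miR-486b-5p names with equal counts, and library 4 reaches 90% at 11 names while the others need 18 to 20.

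After miR-486 came 4 names of 1% or more, in shares that count the miR-486-5p signal under both of its names. With that signal counted once the shares of the other names are higher, so the number past 1% depends on this choice. miR-99a-5p (chr16:77598940-77598961, plus strand, in an intron of the non-coding host gene Mir99ahg) held 2.80%, 1.77%, 2.14%, 2.27%, 1.85% and 3.40% in libraries 1 to 6. Library 6 was highest and library 2 lowest, and the mean was 2.37% ± 0.623. miR-148a-3p (chr6:51269829-51269850, minus strand, in no annotated gene), which is abundant in liver and in secretory tissues, held 1.43%, 1.87%, 1.54%, 2.04%, 1.51% and 3.20%. By this plain share library 6 stood apart from the other 5, but not in the scaled levels given with the flagged results at the end. The mean share was 1.93% ± 0.665.

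miR-25-3p (chr5:138165332-138165353, minus strand, within Mcm7) held 1.68%, 1.74%, 1.55%, 1.52%, 1.73% and 1.16%, with library 6 lowest. miR-92a-3p, which RefSeq places at more than 1 locus, including chr14:115044476-115044496 (plus strand) in the miR-17/92 host gene Mir17hg, held 1.29%, 1.26%, 1.24%, 0.790%, 1.26% and 0.737%. Libraries 4 and 6 were therefore lower than the other 4, which lay close together. miR-451a (chr11:78073186-78073207, plus strand), a red cell microRNA that is matured by Argonaute 2 without Dicer, held 0.830%, 1.19%, 0.985%, 0.727%, 1.32% and 0.771%.

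miR-122-5p, the defining microRNA of hepatocytes, was the 8th most abundant name and the least even of the 20 highest. It held 0.290%, 1.63%, 0.539%, 0.390%, 0.436% and 2.28% of counts in libraries 1 to 6, a mean of 0.926% ± 0.824. Libraries 2 and 6 were far above the other 4, and its rank ran from 5 to 30. In the liver it is the most abundant microRNA by a wide margin, whereas here miR-486a-5p exceeded it in every library, so the defining liver microRNA did not lead the profile of any library despite the tissue label.

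The next 12 names were let-7i-5p (0.858% ± 0.177), miR-423-5p (0.750% ± 0.215), miR-140-3p (0.722% ± 0.113), miR-30d-5p (0.578% ± 0.0896), miR-378a-3p (0.535% ± 0.118), miR-328-3p (0.528% ± 0.0745), miR-126a-3p (0.492% ± 0.230), miR-10a-5p (0.482% ± 0.169), miR-128-3p (0.474% ± 0.0932), miR-24-3p (0.386% ± 0.0749), miR-320-3p (0.368% ± 0.0976) and miR-10b-5p (0.367% ± 0.125). Neighbours in this order, apart from miR-140-3p and miR-30d-5p, differed by less than the larger of their SDs, so most of the order is not resolved by these libraries. For these 20 names the 95% Wilson interval of a single library's share was at most 4.19% of the share on either side, much narrower than the differences between libraries. Of the top 20 names of any library, 29 in all, 14 were in the top 20 of every library. For the top 10 the numbers were 14 and 6.

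**Figure D2:**
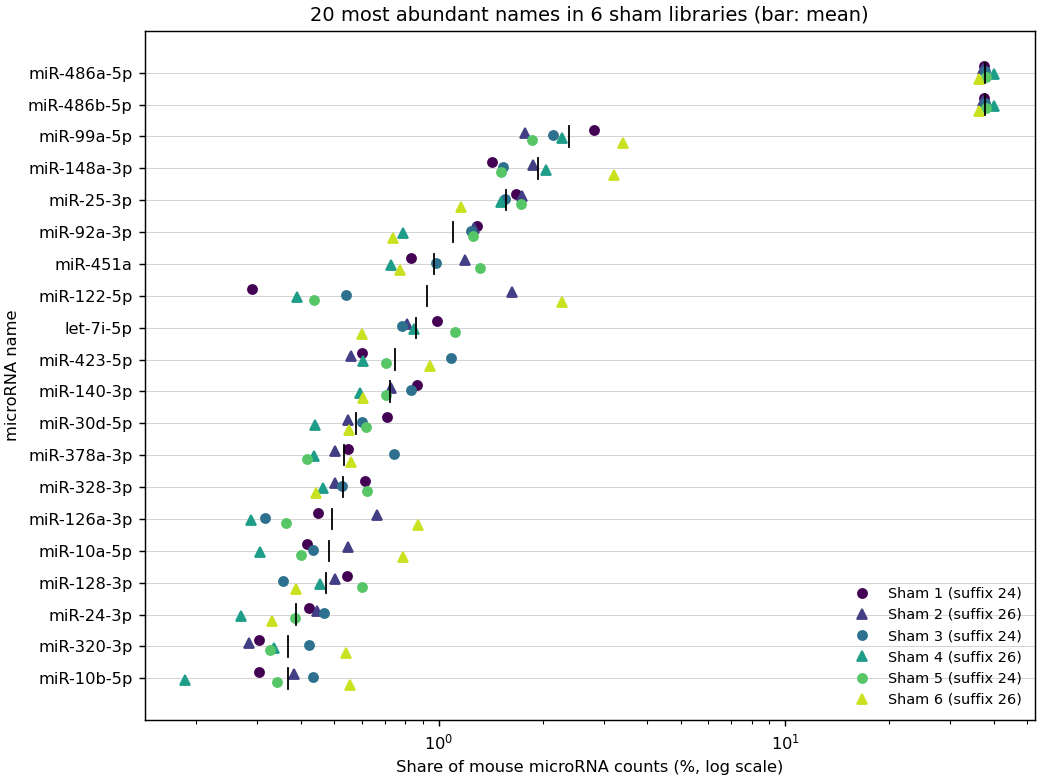
Share of mouse microRNA counts (%, log axis) for the 20 most abundant names, 1 point per sham library (circles: code suffix 24; triangles: code suffix 26), with a bar at the mean of the 6. miR-486a-5p stands at 37.8% and the third name, miR-99a-5p, at 2.37%, and miR-122-5p has the widest range, from 0.290% to 2.28%.

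Summed over lists of names that mark tissues and cell types, the erythroid list held most counts. Its 11 names summed to 79.9% ± 2.66, from 75.7% in library 6 to 83.9% in library 4, to 67.7% ± 3.65 with identical names counted once, and to 15.5% ± 2.95 of the remaining counts once the 4 miR-486 names were left out. The highest names in that remainder were miR-25-3p (1.56% of all counts) and miR-92a-3p (1.10%), of the miR-17/92 and paralogous clusters. Both stood above miR-451a (0.971%). Within this list the members were far from equal (CPM from here on are scaled with edgeR's trimmed means, TMM). miR-451a stood at 9667 ± 2205 CPM, while miR-16-5p, another abundant red cell microRNA, stood at 230 ± 114 CPM and rank 85. miR-144-3p, which is cut from the same primary transcript as miR-451a, stood at 21.9 ± 10.6 CPM and miR-15a-5p at 10.1 ± 4.41 CPM. In all, 8 of the 11 erythroid names had at least 10 counts in every library, against 241 of 1915 (12.6%) over all names.

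The platelet and endothelium list summed to 1.33% ± 0.262, with miR-126a-3p, the classic endothelial microRNA, at 4850 ± 2098 CPM, miR-24-3p at 3816 ± 415 CPM and miR-191-5p at 3077 ± 783 CPM. All 7 of its names had at least 10 counts in every library. miR-223-3p, the leading microRNA of neutrophils and platelets, was low in these libraries, at 61.2 ± 26.2 CPM. The leukocyte list summed to 0.700% ± 0.189, led by miR-142a-5p, a marker of all blood cell lineages, at 3363 ± 1010 CPM. It was followed by the lymphocyte microRNA miR-150-5p at 1119 ± 317 CPM and by miR-181a-5p at 1034 ± 182 CPM, while miR-155-5p stood at 6.70 ± 2.60 CPM.

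The hepatocyte list summed to 0.526%, 2.09%, 0.945%, 0.640%, 0.754% and 2.71% in libraries 1 to 6, and miR-122-5p made up 55.1% to 83.8% of it in single libraries, with a mean of 65.4%. The other hepatocyte names varied less: miR-192-5p stood at 1794 ± 478 CPM, miR-215-5p at 1479 ± 369 CPM and miR-194-5p at 214 ± 79.9 CPM. miR-122-3p, the partner strand of miR-122-5p, had 0 counts in all 6 libraries.

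Several lists of solid tissues were carried by 1 name. Cartilage summed to 0.748% ± 0.116, above the leukocyte list in 4 of 6 libraries, and miR-140-3p was 96.5% of it. The neural list summed to 0.482% ± 0.0933, of which miR-128-3p was 98.3%. miR-140-3p and miR-128-3p are also found outside cartilage and brain. The neuron-restricted miR-124-3p had 6 counts in all 6 libraries together and miR-9-3p had 5. Its partner strand miR-9-5p passed the count filter of the test between first digits below. Of the 9 neural names, 2 (22.2%) had at least 10 counts in every library, against 12.6% of all names. The median level of the 9 was 8.80 CPM. Fibroblast and smooth muscle names summed to 0.684% ± 0.135, led by miR-21a-5p (3287 ± 994 CPM) and miR-143-3p (2449 ± 385 CPM). Striated muscle summed to 0.164% ± 0.0488, led by miR-133a-3p (942 ± 349 CPM) and miR-1a-3p (479 ± 100.0 CPM), and the heart-specific miR-208a-3p stood at 4.12 ± 2.05 CPM. The islet list summed to 0.0659% ± 0.0132, of which the endocrine microRNA miR-375-3p was 76.9%. Epithelial names, led by miR-205-5p at 156 ± 40.5 CPM and miR-200c-3p at 86.3 ± 16.7 CPM, summed to 0.0420% ± 0.0106. The median level of a name over all 1915 was 0.476 CPM. Which cells released the vesicles was not measured, and the part of red cell or platelet carry-over in these sums was not tested.

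**Figure D3:**
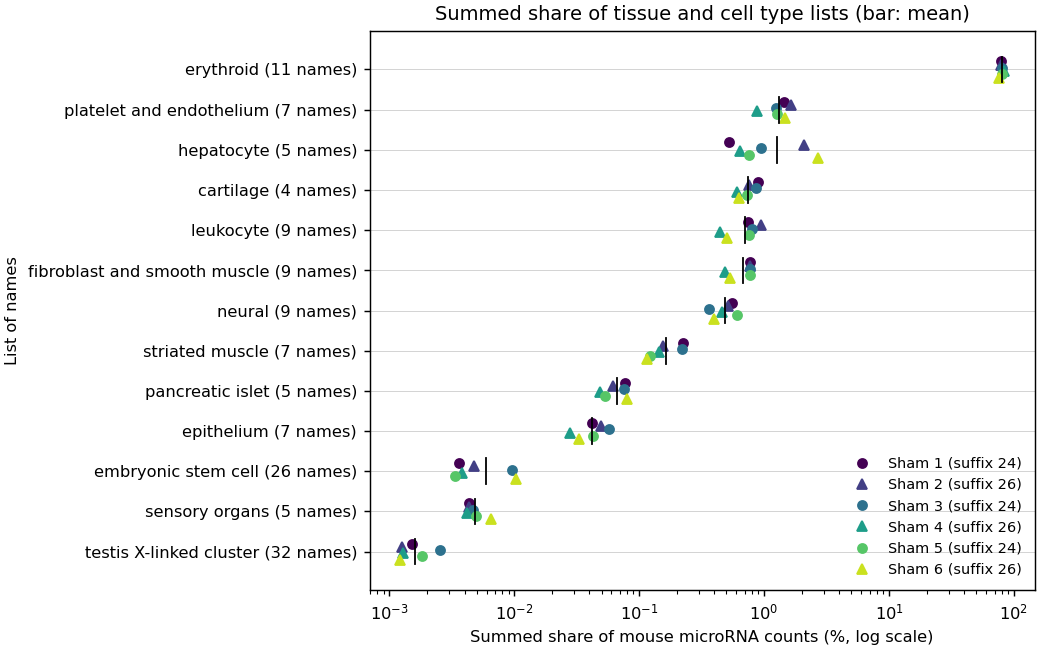
Summed share of mouse microRNA counts (%, log axis) for 13 lists of tissue and cell type names, 1 point per sham library (circles: code suffix 24; triangles: code suffix 26), with a bar at the mean. The shares count the miR-486-5p signal under both of its names. On this scale the erythroid list lies at 75.7% to 83.9% and every other list below 3%, and the hepatocyte list has libraries 2 and 6 above the other 4. With identical names counted once, the mean is 67.7% for the erythroid and 2.04% for the hepatocyte list.

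Grouped by seed, the 1623 names with a sequence formed 1352 groups, 179 of them with at least 2 names. miR-486a-5p and miR-486b-5p had no sequence entry and entered no group, while group shares are of all counts. Of the 5 highest groups, all but the let-7 group were each carried by 1 or 2 members. The seed AUUGCAC of miR-25, miR-92a and miR-92b held 2.67% ± 0.458 of counts. miR-25-3p stood at 15693 ± 2796 CPM and miR-92a-3p at 10857 ± 1987 CPM, whereas miR-92b-3p, with the same seed, stood at 84.4 ± 9.77 CPM. The seed ACCCGUA of miR-99 and miR-100 held 2.60% ± 0.674, of which miR-99a-5p was 91.2%. miR-99b-5p stood at 1224 ± 260 CPM and miR-100-5p at 1037 ± 250 CPM.

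The seed CAGUGCA of the miR-148 and miR-152 family held 1.97% ± 0.662, and miR-148a-3p was 97.8% of it. miR-148b-3p stood at 260 ± 59.7 CPM and miR-152-3p at 167 ± 26.8 CPM. The let-7 seed GAGGUAG, a family that holds back growth-promoting genes in differentiated cells, summed to 1.65% ± 0.240, and 9 of its 11 names had at least 10 counts in every library. let-7i-5p led with 8644 ± 2135 CPM, followed by let-7b-5p with 3170 ± 472 CPM, let-7c-5p with 1831 ± 437 CPM and let-7g-5p with 1103 ± 305 CPM. let-7a-5p and let-7f-5p stood at 697 ± 156 and 636 ± 164 CPM and could not be ranked within their spread. Lowest of the 9 were let-7e-5p at 35.1 ± 25.4 CPM and miR-98-5p at 22.2 ± 3.84 CPM, so these 9 names spanned a 390-fold range. The other two names with this seed were lower still, let-7k at 2.20 ± 1.25 CPM and miR-1961 with 0 counts in all 6 libraries. The fifth group, AACCGUU, was miR-451a alone. The pair miR-10a-5p and miR-10b-5p (seed ACCCUGU), which lie in the Hox gene clusters, were by contrast close, at 4762 ± 1499 and 3597 ± 1051 CPM.

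Genomic clusters were taken as hairpins within 10 kb of a neighbour on 1 strand, counting only names with a single locus. Names with several loci, such as let-7c-5p, miR-194-5p and miR-24-3p, were left out, so some hairpins lack that strand. How unequal the hairpins of such clusters are cannot be read from the tally. Of 69 clusters, 25 held at least 0.01% of counts, and the highest name held at least 90% of the cluster in 12 of these, 50% to 90% in 10 and less in 3. In the cluster of miR-106b, miR-93 and miR-25 within Mcm7, miR-25-3p held 93.2% of the counts. miR-93-5p, from the same transcript, stood at 498 ± 165 CPM. In the cluster of miR-144 and miR-451a (chr11:78073010-78073207) miR-451a held 99.7%. In the cluster of miR-99b, let-7e and miR-125a (chr17:17830194-17830876), miR-99b-5p held 50.9%. miR-222-3p held 55.0% of its cluster with miR-221, which was near equal. Of 188 single-locus names with at least 10 counts in every library, 24 overlapped an exon of a protein-coding gene on the same strand and 64 lay only within introns of one. Another 60 were in no gene on that strand, and the other 40 were in other kinds of gene.

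The same arm was higher in all 6 libraries for 116 of the 128 hairpins tested. Of 749 hairpin names with both arms in the table, 128 had a mean of at least 50 counts over both arms and were tested for a ratio beyond 2-fold (limma treat on the log2 ratio of 5p to 3p counts with 0.5 added to each, Benjamini-Hochberg adjusted p under 0.05). The 5p arm was higher by more than 2-fold in 52 (40.6%) and the 3p arm in 59 (46.1%), together 86.7%, and 17 did not pass in either direction. The median size of the log2 ratio was 5.33, and the median SD of a hairpin's log2 ratio over libraries was 0.790. The sign differed between libraries for the other 12 hairpins, none of them among the 50 with the most counts.

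The leading hairpins had clear arms. The miR-486a log2 ratio was 7.0, 6.90, 6.78, 7.11, 6.60 and 6.80 in libraries 1 to 6, with 660166 5p and 5650 3p counts on average. Toward the 5p arm, let-7i had a log2 ratio of 10.44 ± 0.49 and miR-30d of 11.92 ± 1.37. Toward the 3p arm, miR-148a had -9.28 ± 0.73, miR-25 had -8.92 ± 0.48, miR-328 had -13.29 ± 0.89, miR-378a had -7.10 ± 0.25 and miR-140 had -6.05 ± 0.58 (SD, n = 6). The lower arm had 4 counts for miR-328 and 16 for miR-30d over all 6 libraries together. The size of these 2 ratios therefore depends on the 0.5 added to each arm and on depth. For 14 hairpins the lower arm had 0 counts in all 6 libraries, among them miR-99a, miR-122 and miR-100. Against 3 counts over the group, the 5p arm was higher by at least 16.27 on the log2 scale for miR-99a and at least 14.76 for miR-122.

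A few hairpins gave both strands. They are shown with their arms because both belong to the vesicle repertoire, first miR-423 (chr11, minus strand, in an intron of Nsrp1), then let-7d, whose 3p strand outweighs its let-7 strand, and then miR-18a of the miR-17/92 cluster.
miR-423-5p: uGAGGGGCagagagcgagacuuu
miR-423-3p: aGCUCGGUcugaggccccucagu
let-7d-5p: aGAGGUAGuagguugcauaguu
let-7d-3p: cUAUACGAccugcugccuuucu
miR-18a-5p: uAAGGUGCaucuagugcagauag
miR-18a-3p: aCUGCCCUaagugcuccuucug
The log2 ratio of miR-423 was 0.57, 0.70, 1.39, 1.19, 1.07 and 1.16 in libraries 1 to 6, with the 5p arm higher each time. It was not past 2-fold (limma treat, adjusted p = 0.503), with 12162 5p and 6312 3p counts on average. The let-7d ratio was -2.13, -2.29, -2.33, -2.65, -2.10 and -3.18, so let-7d-3p exceeded let-7d-5p in every library. For miR-18a the ratio was -0.13, -0.81, 1.58, -0.68, -0.33 and 1.48, higher for the 5p arm in libraries 3 and 6 and for the 3p arm in the other 4. miR-223 (1.44 ± 0.79), miR-339 (1.23 ± 0.29) and miR-296 (1.18 ± 0.76) were the other abundant hairpins that did not pass.

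**Figure D4:**
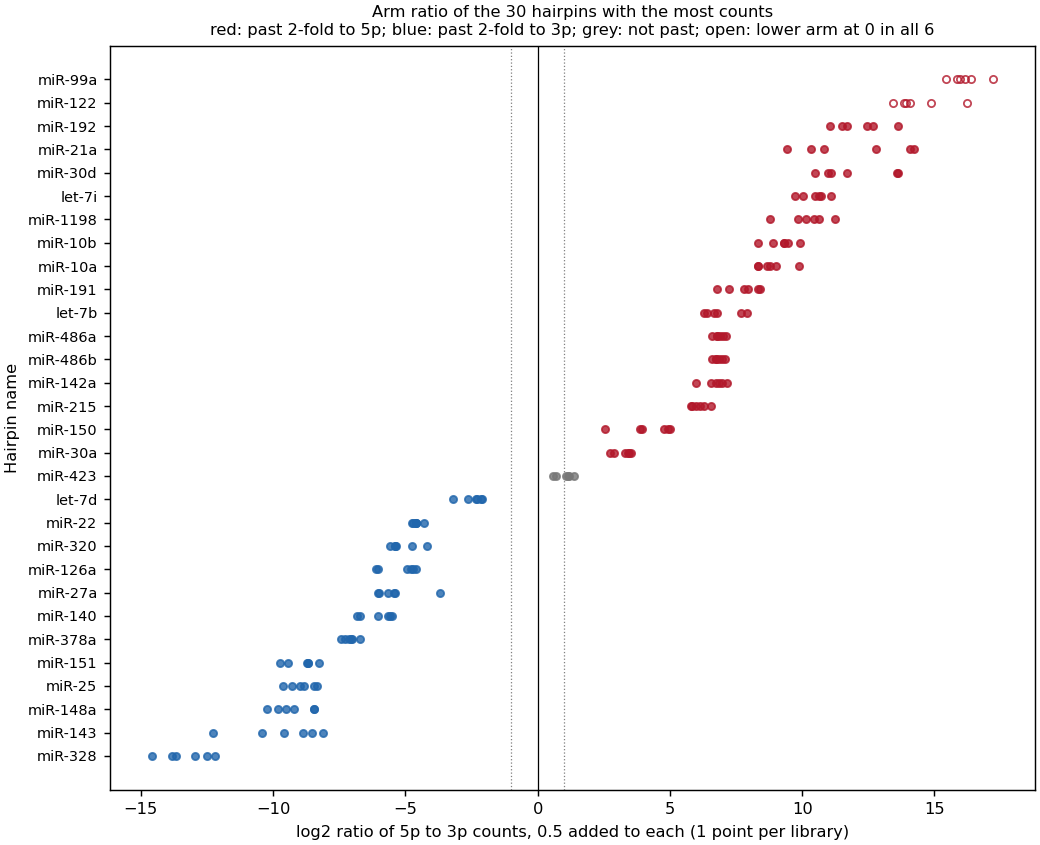
log2 ratio of 5p to 3p counts, with 0.5 added to each, for the 30 hairpin names with the most counts, 1 point per sham library. Red: past 2-fold to 5p, blue: past 2-fold to 3p, grey: not past, open points: lower arm at 0 in all 6. Of these 30, miR-423 alone is not past 2-fold, and each hairpin has its 6 points on 1 side of 0.

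By counts the 5p arm was far ahead: names ending in 5p held 86.4% ± 1.09 and names ending in 3p 11.8% ± 0.893. This split was set by miR-486, since without its 4 names the 5p share was 45.6% ± 2.08 and the 3p share 47.1% ± 1.65. Within libraries, the 3p share was then the higher in libraries 1 to 5, by most in library 4 (50.1% against 43.6%). Library 6 went the other way, with 49.6% for 5p and 45.0% for 3p. Names without an arm ending, such as miR-451a, held the rest.

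Argonaute proteins are known to hold strands that start with U or A well. Among names with a sequence, U was the first base of 40.2% of all 1623, of 44.9% of the 207 with at least 10 counts in every library and of 58.0% of the 50 most abundant. It was the first base of 37.2% of the 296 names with a sequence that had 0 counts in every library. Weighted by counts, names that start with U held 55.3% ± 1.23 of the counts of names with a sequence, A 26.5% ± 1.54, C 16.3% ± 1.95 and G 1.93% ± 0.644. For 86 hairpins with an arm past 2-fold and both arms in RefSeq, the higher arm started with U in 47 (54.7%) and the lower arm in 14 (16.3%). U stood at the start of the higher arm only in 41 hairpins and of the lower arm only in 8. A went the other way, as the first base of 15 higher arms (17.4%) and 30 lower arms (34.9%). A was also the first base of 25.5% of all names with a sequence and of 22.0% of the 50 most abundant. The higher arm started with U in 25 of 41 hairpins called to 5p and in 22 of 45 called to 3p. miR-142a went the other way: its 5p strand starts with C and its 3p strand with U, and the log2 ratio was 6.71 ± 0.41 toward 5p. Length was alike in these sets, with a median of 22 bases, and the median GC content was 52.2% over all names and 47.8% for the 50 most abundant.

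The spread between the sham libraries was well above counting error for abundant names. The biological coefficient of variation, edgeR's estimate of the spread beyond counting error, was 31.9% over the 270 names that passed its count filter. For the 48 names with a mean of at least 1000 CPM the coefficient of variation (CV) had a median of 22.9%, whereas counting error alone gives a median of 1.48% and at most 2.82%. On this scale the most even were miR-1198-5p (CV 5.69%, 1575 to 1810 CPM), miR-423-3p (9.10%), miR-30d-5p (9.28%), miR-140-3p (10.6%) and miR-24-3p (10.9%). The least even were miR-8117 (87.0%, 598 to 4060 CPM), miR-122-5p (86.1%, 2670 to 22117 CPM), miR-126a-3p (43.3%), miR-151-3p (38.7%) and miR-148a-3p (37.6%). The CV of miR-8117 rested on library 1 and was 27.6% without it.

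The order of evenness depended on the scaling. By plain share of counts, miR-486a-5p was the most even, with a CV of 3.45% against 17.6% in TMM-scaled CPM, and in TMM-scaled CPM without library 4 its CV was 4.12%. By plain share miR-1198-5p had 9.37%, miR-423-3p 16.6%, miR-30d-5p 15.5%, miR-140-3p 15.7% and miR-24-3p 19.4%, and miR-1198-5p was the only one of them among the 5 most even. These settings were chosen after seeing the data.

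For several names often used as plasma reference the spread rested on library 6, but for others it changed less without that library. In TMM-scaled CPM over all 6 libraries, miR-484 had a CV of 18.2%, miR-191-5p of 25.5% and miR-93-5p of 33.2%. Without library 6 these were 4.78%, 11.4% and 12.1%, and miR-484 was then the most even of the 48 names above 1000 CPM. miR-103-3p, at 80.0 ± 25.9 CPM, had 32.4%, where counting error alone gives 10.9%, and 21.4% without library 6. miR-16-5p, a widely used reference, had a CV of 49.5% (31.2% without library 6) and stood at 229, 301, 264, 155, 378 and 53.1 CPM in libraries 1 to 6.

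**Figure D5:**
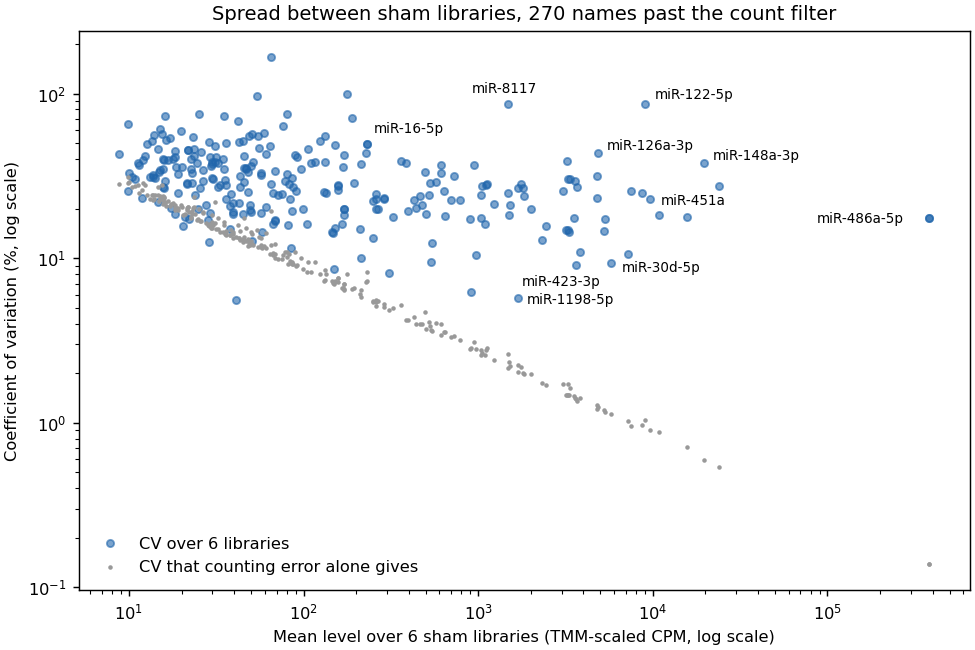
Coefficient of variation (%, log axis) over the 6 sham libraries against mean level (TMM-scaled CPM, log axis) for the 270 names past the count filter, with the CV that counting error alone gives in grey. miR-122-5p and miR-8117 lie at 86.1% and 87.0% and miR-1198-5p at 5.69%.

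Library 6 stood apart from the others. On log2 CPM over the 270 names, the 5 pairs with library 6 had Pearson correlations of 0.947 to 0.963 across names, and the 10 pairs without it 0.972 to 0.987. Library 6 held the highest or the lowest value in 32 of the 48 names above 1000 CPM. It is also the shallowest library, and its depth and its distance from the others cannot be told apart with 1 such library. Without it the biological coefficient of variation was 28.1%, the CV of miR-122-5p was 77.7% and that of miR-92a-3p was 7.86%. The CV of miR-10a-5p went from 31.5% to 12.9% and that of miR-21a-5p from 30.2% to 15.3%.

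The sample codes end in 24 or 26, 3 libraries each, and pair the libraries by a first digit of 4, 5 or 6. What these numbers stand for is not stated. Between suffix 26 (libraries 2, 4 and 6) and suffix 24, 0 of 352 names (0%) passed an adjusted p of 0.05 in edgeR's quasi-likelihood test, and 14 had an unadjusted p under 0.05. DESeq2 called 1 name, miR-122-5p, and limma-voom called 0. miR-122-5p had the smallest adjusted p, with 15271, 5012 and 22117 CPM in suffix 26 against 2670, 4966 and 4380 CPM in suffix 24. All 3 libraries of suffix 26 were thus above all 3 of suffix 24, by little in the case of library 4, whose plain share of 0.390% was below the 0.539% and 0.436% of libraries 3 and 5, so that order depended on the scaling. Its log2 difference was 1.82 ± 0.41 (SE; edgeR adjusted p = 0.184, DESeq2 adjusted p = 0.0177). The edgeR call depended on single libraries: the adjusted p for miR-122-5p was 0.00237 without library 1, 2.27e-05 without library 3 and 3.76e-05 without library 4, but 0.274, 0.855 and 0.752 without libraries 2, 5 and 6, with a higher level in suffix 26 each time. Over the other settings with all 6 libraries, it ran from 4.12e-06 with no count filter to 0.520 with scaling by total counts only.

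Between first digits, 0 of 386 names (0%) passed, with 8 at an unadjusted p under 0.05 and 0 called by DESeq2 or limma-voom. The smallest unadjusted p in this edgeR fit was 0.00765, for miR-335-3p (adjusted p = 0.986), followed by miR-133a-3p, miR-455-3p, miR-5129-5p and miR-542-3p. Pairs with the same first digit correlated no more closely (median r = 0.976 over 3 pairs) than pairs with the same suffix (0.974 over 6) or pairs with neither (0.976 over 6).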

How the data were processed

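Small RNA libraries were made with a NEBNext kit from vesicle RNA, per the labels' protocols. The authors deposited whole-number counts per microRNA name, with no normalisation that the values show. Reads went through cutadapt and STAR, per the submitters' processing notes. Which versions, build and annotation were used, and how reads that match several names were counted, is not given in the sources used here. Only the 6 sham columns and mouse names were used, and 67 names of other species stayed out of library sizes. Shares are counts over the mouse total of a library. CPM used TMM-scaled library sizes (edgeR 4.0.16, R 4.3.3). Names were tested with edgeR's quasi-likelihood F test after its count filter, and arm ratios with limma 3.58.1 (treat), each with Benjamini-Hochberg adjustment over all names or hairpins tested. DESeq2 1.42.0 and limma-voom were alternatives. The procedures were tested on simulated data. Names whose counts were within 1% in every library were counted once in a second set of shares. Positions and sequences are from RefSeq GRCm38.p6 and gene models from GENCODE M21. Library totals ran from 659302 to 2684636. Shares compare names as this protocol captured them. Libraries with the same first digit of the code share a number. The correlations of their deviations from the suffix means were all below 0, so the digits were not taken to pair libraries.

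Named microRNAs were chosen by level, list, seed group, arm ratio and spread: the 20 highest shares, up to 3 of the highest names of a cell type list and its markers at 0, the 10 hairpins with the most counts, the 5 leading 3p hairpins and the 5 leading hairpins not past 2-fold, the 5 lowest and 5 highest CVs, the 5 highest seed groups and 8 reference names. For several lists fewer than 3 names, or none, are given. Others, such as let-7d, miR-142a, miR-16-5p, miR-144-3p, miR-124-3p, miR-9-3p, miR-208a-3p and the members of the seed groups, were named after their values were seen. The members and lists were chosen with earlier results of these data known.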

Additional observations from a re-analysis of the deposited data

Results flagged for a closer look

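In 71 groups of 6 library values (shares of the 20 leading names and of the lists, measures of composition, arm ratios of 10 hairpins and levels of the most and least even names), 8 had a highest or lowest library whose gap to its neighbour, as a share of the range, was above Dixon's 95% critical value for 6 samples. Chance flags about 1 in 20 groups, and many of these measures share the same counts. The most and least even names, miR-8117 among them, were picked by their spread over these same values, so that rate does not hold for them. By plain share, library 6 was far above the others for miR-148a-3p, at 3.20% of counts against at most 2.04%, and with it for the list of miR-148 and miR-152 names, at 3.25% against at most 2.07%. This depended on the scaling. In TMM-scaled CPM, miR-148a-3p stood at 31126 in library 6 and 26224 in library 4, against 13142 to 17537 in the rest. Library 6 was also highest for the list of sensory organ names, at 0.00652% against at most 0.00490%. Library 4 stood apart in 4 measures of concentration: its 10 most abundant names held 89.6% of counts against at most 86.1%, 11 names held 90% of counts against at least 18, 79 names held 99% against at least 96, and the effective number of names was 6.18 against at least 7.83. In library 1, miR-8117 stood at 4060 CPM against at most 1303 CPM in the others.

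Names of other species, which entered no comparison, also had counts. The 63 names with the prefix rco together had 46, 51, 49, 27, 32 and 6 counts in libraries 1 to 6, spread over 53 of these names. The 4 names with the prefix hiv1 had 7 counts in library 1 and at most 2 in the others.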

How the results depend on the processing

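The library composition depended on how the miR-486 names were counted. With identical names counted once, the most abundant name held 60.8% of counts and the 10 most abundant 79.1%, 27.3 and 127.8 names held 90% and 99%, and the effective number was 9.40. With names within 5% also counted once, a choice made after seeing the data because miR-486a-3p and miR-486b-3p have nearly equal counts, these were 61.1%, 79.6%, 26.5, 127.3 and 9.21. With miR-486 left out they were 10.0%, 50.5%, 53, 227 and 52.7. Names per library were 355.7 at 10 or more counts and 736.5 after thinning, and names present in all 6 libraries were 471 at 1 count and 93 at 100 counts. The arm counts followed the number of hairpins tested: a minimum of 10 counts gave 86 hairpins to 5p (and 86 to 3p), and 500 counts gave 31 to 5p and 27 to 3p. The biological coefficient of variation was 34.5% with total counts only, 45.2% with no filter, 28.5% within suffix 24, and 28.1% to 33.5% when a library was left out. Between suffixes, no filter gave 8 names and DESeq2 1, and leaving out a library gave 0 to 8 (2 without library 1, 8 without library 3, 1 without library 4). With the first digit as a replicate block the count was 0 of 352, with 9 at an unadjusted p under 0.05, and miR-122-5p had a log2 difference of 1.67 (edgeR adjusted p = 0.116). Between first digits, no filter gave 6 names and leaving out a library gave 0 to 1 (1 without library 2, 4 or 5), where a digit left with 1 library is assumed to vary like the others. The cause of these changes was not tested. No other alternative moved a count by over 1.5 times. Depth limits the low end: in library 6 names under 4.55 CPM may have no count.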

Other observations

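The hairpin clusters known from embryo, placenta or germ line differed in level. By share of counts in single-locus names, the imprinted clusters on chromosome 12 were 16th and 19th of 69 clusters, and the X-linked testis cluster and the miR-290 cluster were 43rd and 45th. The larger imprinted cluster at chr12:109709065-109747949 (GRCm38, plus strand), with 38 hairpins, summed to 0.0476% ± 0.0190 of counts (SD, n = 6). Of its 71 names, 6 (8.45%) had at least 10 counts in every library and 19 (26.8%) had 0 in all, against 12.6% and 18.6% of all names, and miR-134-5p was the highest. The neighbouring cluster at chr12:109563710-109595387, with 14 hairpins, summed to 0.0246% ± 0.00985. Of its 25 names, 4 (16%) had at least 10 counts in every library and 3 (12%) had 0 in all, and miR-127-3p made up 51.5% of it. The X-linked cluster at chrX:66776760-66839121, known from testis, with 17 hairpins, summed to 0.00125% ± 0.000490, and 0 of its 32 names had at least 10 counts in every library. The miR-290 cluster at chr7:3218639-3220837, a mark of embryonic stem cells, summed to 0.000521% ± 0.000296. miR-302a-5p was an exception among stem cell names, with 48.9 ± 26.8 CPM, and made up 81.8% of that list. The 80 names of the Sfmbt2 intron, a placental cluster, summed to 0.00970% ± 0.00257, and 26 of them (32.5%, against 18.6% of all names) had 0 counts in every library.

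Names numbered 5000 and above, given later in the registry, were 785 of the 1915 names (41.0%) and held 0.570% ± 0.187 of counts. Of them 22 (2.80%, against 12.6% of all names) had at least 10 counts in every library. In all, 161 (20.5%) had 0 in every library, close to the 18.6% of all names.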
